A study of Mus musculus with 24 samples.

Results

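Calcium release and excitation-contraction coupling were followed through 10 genes of the sarcoplasmic reticulum and of the triad, its junction with the surface membrane. They are Casq1, Casq2, Atp2a1, Atp2a2, Ryr1, Ryr3, Cacna1s, Cacnb1, Trdn and Jph1. They were taken by gene symbol from a named list, and all 10 were present among the 46078 genes of both expression tables. RNA-seq gave their levels in 16 mouse samples, in 4 groups of 4. In vivo, satellite cells, the resident stem cells of muscle, were freshly sorted from muscle injured 3 days earlier with cardiotoxin, from C57BL/6 mice of 2 to 4 months with the genotype Chd4dPax7ER or Chd4fl/fl. The sorting gate took SCA1- and CD45- cells that were positive for α7-integrin and CD34. In vitro, primary myoblasts grown from satellite cells of resting, uninjured muscle were kept proliferating. They came from C57BL/6 mice of the same ages, all Chd4fl/fl, and were infected for 72 hours with adenovirus coding for Cre (AdCRE) or for GFP (AdGFP). Chd4 is the remodelling ATPase of NuRD, a chromatin complex, and Cre removes the floxed part of its gene. Only AdCRE supplied Cre, so in the cultures loss of Chd4 cannot be told apart from other effects of Cre. In the sorted cells the label Chd4dPax7ER alone names Pax7ER. The sources used here do not say which driver made Cre there, or whether Cre and any inducing drug were also given to the Chd4fl/fl mice. Nor do the labels say whether each replicate is its own animal or culture. The p-values therefore cover no more than the spread among these libraries, which may be technical.

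In skeletal muscle an action potential reaches the triad, where the voltage sensor of the transverse tubule, the dihydropyridine receptor, touches the ryanodine receptor of the sarcoplasmic reticulum. The contact opens the ryanodine receptor, and the calcium it releases starts contraction. Calsequestrin holds calcium inside the store, triadin anchors it to the release channel, junctophilin ties the 2 membranes together, and SERCA pumps return the calcium. Satellite cells have no triads. The genes come on as myoblasts leave the cell cycle and differentiate, with Atp2a2 also used by most other cells as a housekeeping pump.

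Levels are RPKM, reads scaled to the length of the gene and the reads of the library, which allows genes to be compared per length. Chd4 averaged 20.8 ± 3.49 RPKM in AdCRE and 75.1 ± 7.75 RPKM in AdGFP cultures (SD, n = 4 each). In the sorted cells it averaged 56.7 ± 8.37 RPKM in Chd4dPax7ER and 126 ± 6.77 RPKM in Chd4fl/fl samples. Both differences gave the smallest p that an exact permutation test of 4 against 4 allows, 0.0286 two-sided. In the cultures, where libraries of the same number deviated together, permuting Chd4 within those pairs gave 0.125. That is the smallest exact p that 4 pairs allow. Values summed to 286802 to 306114 RPKM per library in the sorted cells and to 288659 to 326812 RPKM in the cultures. Relative depth could be read from the cultures' low values alone, where the deepest library had 1.64 times the reads of the shallowest. Itga7, which codes for α7-integrin, was high among the sort's own markers, at 280.0 RPKM in Chd4dPax7ER and 218 RPKM in Chd4fl/fl samples. Cd34 averaged 6.52 RPKM in Chd4dPax7ER and 6.32 RPKM in Chd4fl/fl samples. Ptprc, which codes for CD45, averaged 0.410 RPKM in Chd4dPax7ER and 0.323 RPKM in Chd4fl/fl samples, and Ly6a, which codes for SCA1, averaged 8.86 RPKM in Chd4dPax7ER and 5.52 RPKM in Chd4fl/fl samples.

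Among sorted cells, 7 of the 10 genes rose in Chd4dPax7ER relative to Chd4fl/fl cells, 1 fell and 2 missed the threshold. Casq1, Atp2a1, Atp2a2, Ryr1, Cacnb1, Trdn and Jph1 rose, Ryr3 fell, and Casq2 and Cacna1s did not pass. The test was limma on log2(RPKM + 0.5), a scale that understates the change of low genes, with the threshold for passing set at an adjusted p of 0.05 over all 13344 genes tested. Of those genes, 14.7% rose and 11.9% fell. The median log2 fold change was 0.88 over the 10 genes and -0.02 over all genes tested. All 10 genes passed the filter on low values, 0.5 RPKM in at least 4 of the 8 libraries. Ryr3 passed it through its 4 Chd4fl/fl libraries and 1 Chd4dPax7ER library, and Trdn through 4 Chd4dPax7ER and 2 Chd4fl/fl libraries. The 2 groups did not overlap for 8 of the 10 genes, 7 higher and 1 lower in Chd4dPax7ER cells. Over all genes tested, 16% lay wholly higher and 14.3% wholly lower. Chd4dPax7ER replicate 2 had the highest level of all 8 libraries for 9 of the 10 genes, all but Ryr3. Chd4fl/fl replicate 1 had the lowest for 6, which were Casq1, Casq2, Atp2a1, Ryr1, Cacna1s and Cacnb1.

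**Figure D1:**
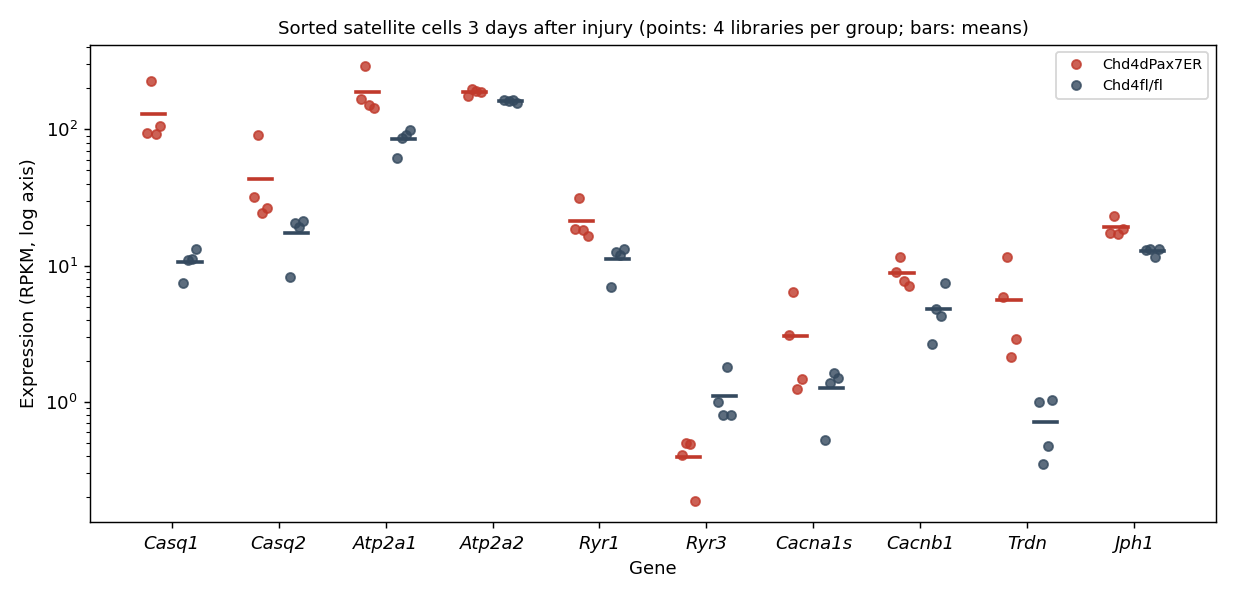
Level of each of the 10 genes in the 8 sorted-cell libraries, in RPKM on a log axis, with Chd4dPax7ER libraries left of Chd4fl/fl libraries, points for libraries and a bar for each group's mean. Casq1 shows the widest gap between the groups, with 92.6 to 227 RPKM in Chd4dPax7ER and 7.44 to 13.2 RPKM in Chd4fl/fl cells, while Cacna1s and Cacnb1 overlap and Ryr3 is lower in Chd4dPax7ER cells.

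The calsequestrins are the calcium-binding proteins of the store, with Casq1 the form of fast skeletal fibres and Casq2 that of heart and of slow or developing muscle. Their promoters are shown because, with Trdn, they had the largest fitted changes of the 10 genes in Chd4dPax7ER cells. That of Casq2 did not pass, and without Chd4dPax7ER replicate 2 it was 0.73, below the 0.88 of the fast pump Atp2a1. The promoter of Atp2a1 was added after its values were known. Each runs from 250 bases before to 50 after the gene start in RefSeq on GRCm38.p6, 5′ to 3′ on the gene's strand. Gene positions given with each gene are of the same build. Capitals mark E-boxes, CANNTG on both strands, the letters bound by myogenic factors such as MyoD and myogenin, and in Casq2 also a match to the MEF2 site. The Casq1 window is chr1:172219846-172220145 on the minus strand, that of Casq2 is chr3:102086165-102086464 on the plus strand, and that of Atp2a1 is chr7:126463024-126463323 on the minus strand.
Casq1: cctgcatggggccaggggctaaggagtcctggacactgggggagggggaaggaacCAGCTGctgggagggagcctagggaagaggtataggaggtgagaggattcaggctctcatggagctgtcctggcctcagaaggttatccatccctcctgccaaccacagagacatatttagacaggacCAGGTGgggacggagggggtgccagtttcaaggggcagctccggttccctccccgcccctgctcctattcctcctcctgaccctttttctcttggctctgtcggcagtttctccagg
Casq2: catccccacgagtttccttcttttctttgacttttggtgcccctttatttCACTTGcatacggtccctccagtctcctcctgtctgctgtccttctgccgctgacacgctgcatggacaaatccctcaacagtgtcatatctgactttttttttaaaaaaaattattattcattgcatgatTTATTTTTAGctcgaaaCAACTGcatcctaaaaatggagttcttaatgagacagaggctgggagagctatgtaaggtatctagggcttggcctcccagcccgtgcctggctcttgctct
Atp2a1: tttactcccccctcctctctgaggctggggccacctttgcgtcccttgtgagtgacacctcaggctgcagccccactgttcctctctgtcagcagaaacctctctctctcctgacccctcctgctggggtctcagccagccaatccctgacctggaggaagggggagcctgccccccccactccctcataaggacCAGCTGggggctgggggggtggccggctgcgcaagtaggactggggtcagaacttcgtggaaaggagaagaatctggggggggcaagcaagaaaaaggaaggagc
Casq1 has E-boxes starting 195 and 67 bases before the gene start, CAGCTG and CAGGTG. Casq2 has them at 200 and 52 bases, CACTTG and CAACTG, and the MEF2 match TTATTTTTAG just before the second. Atp2a1 has 1 E-box, CAGCTG, at 55 bases. E-boxes occur in 72.3% of the 32851 promoter windows of that length, the MEF2 site in 3.19% and the CArG box of SRF, found in none of these 3 windows, in 1.63%. A match to letters is a description and not a bound site. Promoters of 6 of the 10 genes were in the reference table, and that of Ryr1 held no E-box.

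Casq1, which lies at chr1:172209894-172219895, was at 94.2, 227, 92.6 and 106 RPKM in Chd4dPax7ER replicates 1 to 4, against 7.44, 11.1, 11.2 and 13.2 RPKM in Chd4fl/fl replicates 1 to 4. The lowest Chd4dPax7ER library was several times the highest Chd4fl/fl library. The means were 129.9 ± 64.8 RPKM in Chd4dPax7ER and 10.7 ± 2.41 RPKM in Chd4fl/fl cells (SD, n = 4 each), a ratio of 12.1. The log2 fold change was 3.45 (SE 0.29, adjusted p = 0.000112, limma), and Casq1 passed with each library left out in turn. Without Chd4dPax7ER replicate 2 it was 3.15, over 3 libraries that averaged 97.7 ± 7.56 RPKM.

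Casq2, at chr3:102086415-102146514, was at 32.0, 91.7, 24.5 and 26.4 RPKM in Chd4dPax7ER cells, against 8.25, 20.6, 19.4 and 21.4 RPKM in Chd4fl/fl cells. Every Chd4dPax7ER library was above every Chd4fl/fl library, but 1 library stood far up in the first group and 1 far down in the second. The means were 43.6 ± 32.2 RPKM in Chd4dPax7ER and 17.4 ± 6.17 RPKM in Chd4fl/fl cells. The log2 fold change of 1.16 (SE 0.44, adjusted p = 0.0796, limma) did not pass. It was 0.73 (adjusted p = 0.127, limma) without Chd4dPax7ER replicate 2.

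Atp2a1 codes for SERCA1, the calcium pump of fast fibres, and lies at chr7:126445858-126463103. It was at 167, 290.2, 152 and 143 RPKM in Chd4dPax7ER cells, against 61.7, 87.0, 91.7 and 99.5 RPKM in Chd4fl/fl cells. The groups did not overlap. The means were 188 ± 68.7 RPKM in Chd4dPax7ER and 85.0 ± 16.3 RPKM in Chd4fl/fl cells, with a log2 fold change of 1.10 (SE 0.23, adjusted p = 0.00755, limma) that passed with each library left out.

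Atp2a2 codes for SERCA2, the pump of slow fibres, heart and most other cells, and lies at chr5:122453513-122502225. It was at 176, 197, 190.2 and 189 RPKM in Chd4dPax7ER cells, against 164, 162, 165 and 157 RPKM in Chd4fl/fl cells. It was the most even of the 10 genes within a group, and its groups did not overlap. The means were 188 ± 8.90 RPKM in Chd4dPax7ER and 162 ± 3.41 RPKM in Chd4fl/fl cells. The log2 fold change was small, 0.22 (SE 0.06, adjusted p = 0.0214, limma), and the call was lost without Chd4fl/fl replicate 2 or 4, where the adjusted p reached 0.0602. It was also lost with values rescaled to TPM (adjusted p = 0.0632, limma) or to equal quantiles (adjusted p = 0.0915, limma), and without a variance trend (adjusted p = 0.0726, limma).

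Ryr1 codes for the main release channel of skeletal muscle and lies at chr7:29003340-29125179. It was at 18.7, 31.5, 18.3 and 16.6 RPKM in Chd4dPax7ER cells, against 6.94, 12.6, 11.99 and 13.2 RPKM in Chd4fl/fl cells. The groups did not overlap, and the gap between them was narrow. The means were 21.3 ± 6.86 RPKM in Chd4dPax7ER and 11.2 ± 2.87 RPKM in Chd4fl/fl cells, with a log2 fold change of 0.89 (SE 0.24, adjusted p = 0.0243, limma). Without Chd4dPax7ER replicate 2 it was 0.69 and still passed (adjusted p = 0.0451, limma).

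Ryr3, a release channel found mainly in developing muscle and in brain, lies at chr2:112631354-113217405. It was at 0.41, 0.50, 0.49 and 0.19 RPKM in Chd4dPax7ER cells, against 1.01, 0.80, 1.81 and 0.80 RPKM in Chd4fl/fl cells. It was the only member lower in Chd4dPax7ER cells, with no overlap between the groups. The means were 0.398 ± 0.144 RPKM in Chd4dPax7ER and 1.11 ± 0.480 RPKM in Chd4fl/fl cells, with a log2 fold change of -0.81 (SE 0.25, adjusted p = 0.0401, limma). The call was lost in each of the 8 fits that left out a library, with adjusted p from 0.0528 to 0.0916. It was also lost without the filter on low values (adjusted p = 0.0722, limma), and with a filter of 1 RPKM Ryr3 was not tested. The log2 fold change of Ryr3 depended on the RPKM added, at -1.26 with 0.1 and -0.57 with 1.

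Cacna1s codes for the pore and voltage sensor of the dihydropyridine receptor and lies at chr1:136052806-136119822. It was at 3.09, 6.45, 1.25 and 1.47 RPKM in Chd4dPax7ER cells, against 0.53, 1.38, 1.63 and 1.5 RPKM in Chd4fl/fl cells. Chd4dPax7ER replicates 3 and 4 lay inside the Chd4fl/fl range. The means were 3.07 ± 2.40 RPKM in Chd4dPax7ER and 1.26 ± 0.497 RPKM in Chd4fl/fl cells, and the log2 fold change of 0.85 (SE 0.44, adjusted p = 0.182, limma) did not pass. It was 0.45 without Chd4dPax7ER replicate 2.

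Cacnb1, which codes for the cytoplasmic beta subunit that brings the receptor to the triad, lies at chr11:98001508-98023034. It was at 9.06, 11.6, 7.74 and 7.14 RPKM in Chd4dPax7ER cells, against 2.68, 4.86, 4.31 and 7.45 RPKM in Chd4fl/fl cells. Chd4fl/fl replicate 4 was above Chd4dPax7ER replicate 4, so the groups overlapped. The means were 8.88 ± 1.96 RPKM in Chd4dPax7ER and 4.83 ± 1.98 RPKM in Chd4fl/fl cells, with a log2 fold change of 0.87 (SE 0.26, adjusted p = 0.0368, limma). The call was lost in 6 of the 8 fits that left out a library, which were those without replicate 1, 2 or 3 of either group, with an adjusted p of up to 0.0910. It was lost without the filter on low values too (adjusted p = 0.0678, limma), and without a variance trend (adjusted p = 0.0513, limma).

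Trdn codes for triadin, and lies at chr10:33083483-33476709. It was at 5.87, 11.5, 2.16 and 2.93 RPKM in Chd4dPax7ER cells, against 1.01, 0.35, 0.48 and 1.04 RPKM in Chd4fl/fl cells. All Chd4dPax7ER libraries were above all Chd4fl/fl libraries, with a spread of several fold among the Chd4dPax7ER libraries. The means were 5.62 ± 4.25 RPKM in Chd4dPax7ER and 0.720 ± 0.356 RPKM in Chd4fl/fl cells, a ratio of 7.81. The log2 fold change of 2.12 (SE 0.45, adjusted p = 0.00836, limma) was the largest after that of Casq1 among the 10, and it passed with each library left out, from 1.72 to 2.44. With Trdn so low in Chd4fl/fl cells, its size depended on the RPKM added, at 2.62 with 0.1 and 1.76 with 1.

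Jph1 codes for junctophilin 1, and lies at chr1:16942104-17097922. It was at 17.5, 23.2, 17.3 and 18.5 RPKM in Chd4dPax7ER cells, against 13.0, 13.3, 11.7 and 13.3 RPKM in Chd4fl/fl cells. The groups did not overlap and each was even. The means were 19.1 ± 2.79 RPKM in Chd4dPax7ER and 12.8 ± 0.766 RPKM in Chd4fl/fl cells, with a log2 fold change of 0.55 (SE 0.11, adjusted p = 0.00564, limma) that passed with each library left out.

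The order of the levels differed between the groups of sorted cells mainly in the place of Casq1. In Chd4dPax7ER cells Atp2a1, Atp2a2 and Casq1 stood at the top with overlapping ranges, clear of Casq2, Ryr1 and Jph1. Cacnb1, Trdn and Cacna1s followed, again with overlapping ranges among them, and Ryr3 was lowest and clear of the rest. In Chd4fl/fl cells Atp2a2 was highest and clear of Atp2a1, which was clear of Casq2. Casq2, Jph1, Ryr1, Casq1 and Cacnb1 then followed with each neighbour's range overlapping the next. Cacnb1 was clear of Cacna1s, Ryr3 and Trdn, which overlapped.

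Paralogues can be compared within a library, where its scaling cancels. Casq1 over Casq2 was a ratio of 3.31 ± 0.729 in Chd4dPax7ER and 0.659 ± 0.165 in Chd4fl/fl cells (SD, n = 4 each), so the fast form was the higher one in every Chd4dPax7ER library and the lower one in every Chd4fl/fl library. Atp2a1 over Atp2a2 was 0.996 ± 0.329 in Chd4dPax7ER and 0.527 ± 0.108 in Chd4fl/fl cells. Ryr1 over Ryr3 was 58.4 ± 22.2 in Chd4dPax7ER and 11.4 ± 5.43 in Chd4fl/fl cells. The size of this last ratio is uncertain, since Ryr3 was at only 0.19 to 0.50 RPKM in Chd4dPax7ER cells. On the log2 scale, with 0.5 RPKM added to each gene, the 3 ratios differed by 2.29, 0.89 and 1.70 between Chd4dPax7ER and Chd4fl/fl cells. For Ryr3 in Chd4dPax7ER cells the 0.5 RPKM added was as large as the level or larger, so scaling does not fully cancel there. None of the 3 ratios overlapped between the groups. Each gave p = 0.0286, the smallest an exact two-sided permutation test of 4 against 4 allows. Adjusted over the 6 tests computed, 3 in each setting, each was 0.0571, which is above the threshold.

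The mean calsequestrin ratio of the cultures differed little between viruses. The log2 ratio of Casq1 over Casq2 was -2.52 ± 1.33 in AdCRE and -2.57 ± 1.41 in AdGFP cultures (exact permutation p = 0.971). Within same-numbered pairs, AdCRE minus AdGFP was 0.45, -0.05, -0.10 and -0.10 in replicates 1 to 4, so the pairs did not move in 1 direction. The log2 ratio of Atp2a1 over Atp2a2 was -1.12 ± 0.474 in AdCRE and -1.59 ± 0.615 in AdGFP cultures (exact permutation p = 0.286). Within the same-numbered pairs the log2 ratio of Atp2a1 over Atp2a2 was higher in AdCRE all 4 times, by 0.68, 0.31, 0.24 and 0.68. Permuted within pairs it gave 0.125, the smallest exact p that 4 pairs allow. Casq2 was the higher calsequestrin in every culture library. Ryr3 was too low in the cultures for a ratio of Ryr1 over Ryr3 to be read there.

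**Figure D2:**
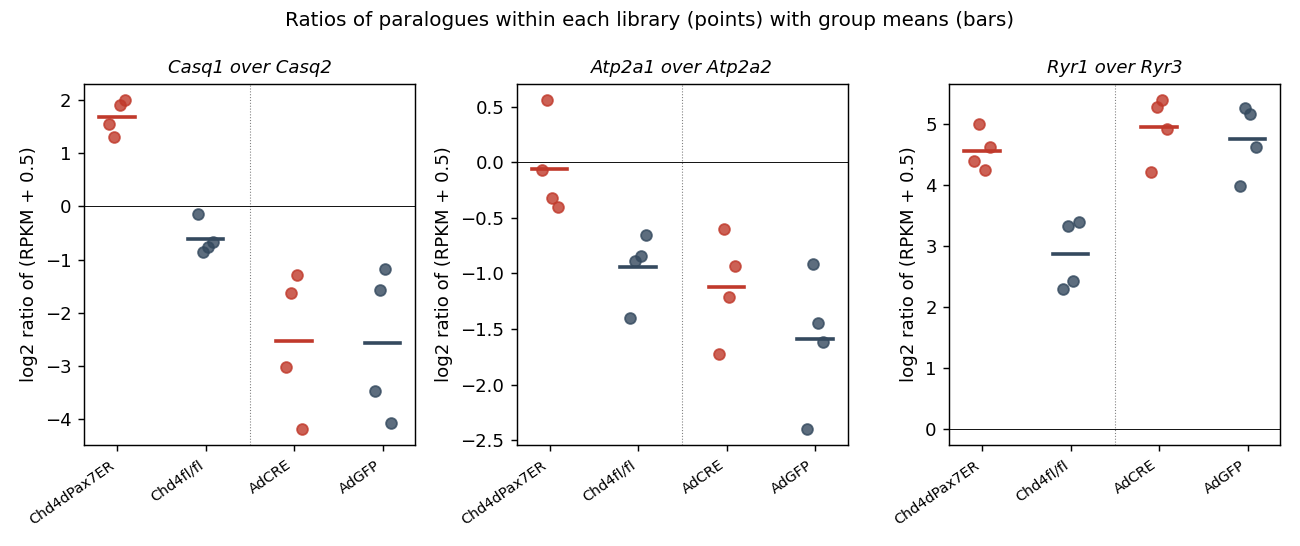
Log2 ratio of the paralogues Casq1 over Casq2, Atp2a1 over Atp2a2 and Ryr1 over Ryr3 in each library, with 0.5 RPKM added to each gene, points for libraries, bars for group means, and each Chd4-deficient group left of its control. In the sorted cells the groups do not overlap for any pair, with Casq1 over Casq2 at 1.30 to 1.99 in Chd4dPax7ER and -0.86 to -0.14 in Chd4fl/fl cells, and in the cultures the ranges overlap throughout, with Ryr3 there too low for its ratio to be read.

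Some of the genes outside the 10 that serve the same machinery also rose in the sorted cells, others did not pass, and none fell. Over all genes tested 14.7% rose and 11.9% fell. Of 16 further genes of triad and reticulum structure, 15 were tested, 9 rose and 6 did not pass, with a median log2 fold change of 0.82. Of 9 channel subunits and genes of membrane excitability, 8 were tested, 4 rose and 4 did not pass, with a median of 0.61. Of 20 pump regulators, store entry, extrusion and buffer genes, 17 were tested, 7 rose and 10 did not pass, with a median of 0.35.

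Among them Sln, the SERCA inhibitor sarcolipin, averaged 5.23 ± 4.89 RPKM in Chd4dPax7ER and 0.233 ± 0.293 RPKM in Chd4fl/fl cells, with a log2 fold change of 2.62 (SE 0.60, adjusted p = 0.0122, limma). It was listed at 0 in 2 Chd4fl/fl libraries. Hrc, a calcium-binding partner of triadin in the store, averaged 28.9 ± 17.7 RPKM in Chd4dPax7ER and 4.94 ± 1.75 RPKM in Chd4fl/fl cells (2.34, adjusted p = 0.00253, limma). Sln was so low in Chd4fl/fl cells that its fitted change depends on the 0.5 RPKM added, and no order of size is read from it.

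Cav3, the muscle caveolin that helps to form transverse tubules, rose by 2.02 (log2, adjusted p = 0.00385, limma). Scn4a, the sodium channel of the muscle action potential, averaged 3.17 ± 1.38 RPKM in Chd4dPax7ER and 0.495 ± 0.108 RPKM in Chd4fl/fl cells (1.82, adjusted p = 0.00132, limma). Stac3, the adaptor that couples the voltage sensor to release, averaged 44.9 ± 9.45 RPKM in Chd4dPax7ER and 12.8 ± 2.07 RPKM in Chd4fl/fl cells (1.77, SE 0.16, adjusted p = 0.000164, limma). Stac3 thus passed where the voltage sensor subunit Cacna1s did not, and the difference between the 2 was not tested. Sypl2, a triad protein also called mitsugumin 29, rose by 1.66 (adjusted p = 0.0159, limma), and Atp2a3, the SERCA3 pump, by 1.50 (adjusted p = 0.00155, limma). Jsrp1, a triad protein that binds the voltage sensor, rose by 1.21 (adjusted p = 0.0111, limma). Hrc, Cav3, Scn4a, Stac3, Sypl2, Atp2a3 and Jsrp1 each passed with each library left out in turn. Sln did too, but it came through the filter on low values mainly by its Chd4dPax7ER libraries, so this adds no support. The filter was applied over all 8 libraries and not anew in these fits.

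Jph2, the junctophilin also found in heart, averaged 13.8 ± 5.49 RPKM in Chd4dPax7ER and 18.3 ± 4.57 RPKM in Chd4fl/fl cells, and did not pass (-0.43, adjusted p = 0.292, limma). It was thus on the other side of 0 from Jph1. Mrln, the SERCA inhibitor myoregulin, averaged 3.12 ± 1.17 RPKM in Chd4dPax7ER and 3.19 ± 1.52 RPKM in Chd4fl/fl cells and did not pass (adjusted p = 0.998, limma). Pln, the SERCA inhibitor phospholamban, was too low to test, at 0.30 to 0.90 RPKM in Chd4dPax7ER and 0 to 0.51 RPKM in Chd4fl/fl cells.

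**Figure D3:**
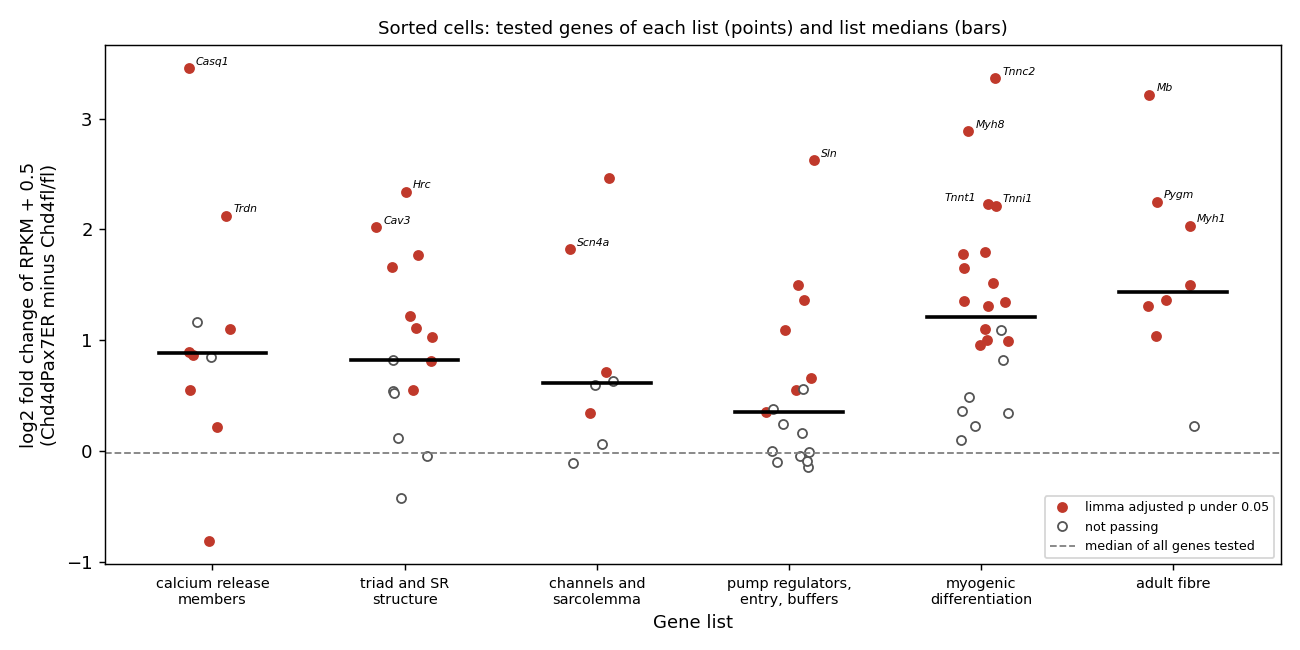
Log2 fold change of RPKM + 0.5 (Chd4dPax7ER minus Chd4fl/fl) for each tested gene of the 10 calcium release genes, of 3 wider calcium handling lists and of 2 marker lists in the sorted cells, with filled points passing limma's threshold and bars for list medians. The medians lie at 0.88 for the 10 genes, 0.82, 0.61 and 0.35 for the wider lists, 1.21 for myogenic differentiation and 1.43 for adult fibre markers, above the dashed median of all genes. Ckm is in both marker lists.

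Markers of differentiation moved with the calcium release genes in the sorted cells. Of 22 such markers, 15 rose and 7 did not pass, against 14.7% higher and 11.9% lower over all genes tested. Their summed level was 2863 to 6389 RPKM in Chd4dPax7ER and 1001 to 1882 RPKM in Chd4fl/fl cells, with none at 0 throughout. Chd4dPax7ER replicate 2 had the highest sum, and Chd4fl/fl replicate 1 the lowest, the same libraries that were the extremes for most of the 10 genes. Cell cycle genes ran the other way, with 6 of 16 lower and a sum of 326 to 605 RPKM in Chd4dPax7ER and 642 to 875 RPKM in Chd4fl/fl cells. Their lowest sum was that of Chd4dPax7ER replicate 2 and their highest that of Chd4fl/fl replicate 1.

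Myog, the myogenic factor of terminal differentiation, averaged 572 ± 171 RPKM in Chd4dPax7ER and 292 ± 65.8 RPKM in Chd4fl/fl cells (log2 fold change 0.96, adjusted p = 0.0130, limma). Acta1, skeletal actin, rose by 1.79 (adjusted p = 0.00559, limma). Tnnc2, the calcium sensor of fast fibres, averaged 446 ± 114 RPKM in Chd4dPax7ER and 44.4 ± 15.8 RPKM in Chd4fl/fl cells (3.36, adjusted p = 0.000113, limma), beside 3.45 for Casq1. Myh3, embryonic myosin, averaged 199 ± 111 RPKM in Chd4dPax7ER and 107 ± 32.2 RPKM in Chd4fl/fl cells and did not pass (0.82, adjusted p = 0.115, limma).

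Adult fibre markers also moved with the 10 genes, with 7 of 8 tested higher and a sum of 194 to 413 RPKM in Chd4dPax7ER and 67.0 to 102 RPKM in Chd4fl/fl cells. The lists are not fully separate, since Ckm is also a differentiation marker here and Pvalb is also among the buffer genes. Beside the counts of this paragraph, the shares over all genes tested were 14.7% higher and 11.9% lower. Satellite cell markers summed to 750.4 to 856 RPKM in Chd4dPax7ER and 544 to 639 RPKM in Chd4fl/fl cells, with 3 of 10 higher, 1 lower and 6 not passing. Fibroblast markers summed to 228 to 387 RPKM in Chd4dPax7ER and 89.8 to 120 RPKM in Chd4fl/fl cells, with 4 of 8 higher. Smooth muscle and pericyte markers, 4 of 8 tested higher, summed to 232 to 461 RPKM in Chd4dPax7ER and 125 to 277 RPKM in Chd4fl/fl cells. Schwann cell markers, 4 of 6 higher, summed to 28.7 to 68.3 RPKM in Chd4dPax7ER and 27.5 to 40.7 RPKM in Chd4fl/fl cells. Leukocyte markers summed to 66.8 to 146 RPKM in Chd4dPax7ER and 57.4 to 105 RPKM in Chd4fl/fl cells, and endothelial markers to 3.91 to 10.99 RPKM in Chd4dPax7ER and 3.11 to 6.01 RPKM in Chd4fl/fl cells. Of the 6 leukocyte and the 1 endothelial markers tested, none passed. Cardiac markers summed to 32.6 to 68.6 RPKM in Chd4dPax7ER and 10.8 to 22.5 RPKM in Chd4fl/fl cells. Of these markers 1 of the 2 tested rose, and Nppa, Nppb, Myl7 and Tbx5 were listed at 0 in all 8 libraries. In bulk RNA, fewer cells of a type and less RNA per cell cannot be told apart, and the part of these marker lists in the changes of the 10 genes was not tested.

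The genes outside the 10 whose profile over the 8 sorted-cell libraries came nearest to the mean profile of the 10 were Tmem38a, Dusp27, Cryab, Trpm4 and Synpo2l. Nearness was the root mean square difference in log2(RPKM + 0.5) after centring each on its mean. It was 0.0892 for Tmem38a, which codes for the potassium channel TRIC-A of the sarcoplasmic reticulum, and 0.123 to 0.129 for the other 4. Of the 10 themselves Atp2a1 was nearest, at 0.0607, and Casq1 farthest, at 1.22. Each of the 10 is part of that mean, so their distances are not comparable with those of genes outside it. Tmem38a is also 1 of the 16 further genes of triad and reticulum structure above. Tmem38a averaged 60.6 ± 23.5 RPKM in Chd4dPax7ER and 26.8 ± 4.41 RPKM in Chd4fl/fl cells.

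In the cultures none of the 10 genes passed the test. The fit compared AdCRE with AdGFP over 13567 genes, of which 0.516% rose and 0.14% fell, and 2111 had an unadjusted p under 0.05. The 9 genes tested all had positive log2 fold changes, from 0.12 to 0.60, as did 48.7% of all genes tested, and adjusted p ran from 0.541 to 0.960. Ryr3, at 0.0458 to 0.0996 RPKM in AdCRE and 0.0350 to 0.0979 RPKM in AdGFP cultures, was too low to test. The groups overlapped for all 10 genes, where 3.8% of all genes tested lay wholly higher and 6.21% wholly lower in AdCRE. Levels differed far more between replicate numbers than between viruses, and libraries of the same number lay close together. Same-numbered libraries deviated together over all genes, so they were taken as pairs.

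With the replicate number as a block, 7 of the 9 genes passed, all higher in AdCRE cultures. They were Casq1, Casq2, Atp2a1, Atp2a2, Ryr1, Trdn and Jph1. In that fit 17.5% of all genes rose and 18.7% fell. AdCRE was above AdGFP in all 4 pairs for 8 of the 9 genes tested, against 25.1% of all genes tested. Cacna1s was the exception, with replicate 1 at 3.79 RPKM in AdCRE and 3.82 RPKM in AdGFP cultures. When any 1 pair was left out, 4 to 6 genes passed, and Casq2, Atp2a1, Trdn and Jph1 did so each time. Over all genes 11.5% to 14.5% rose in those fits.

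**Figure D4:**
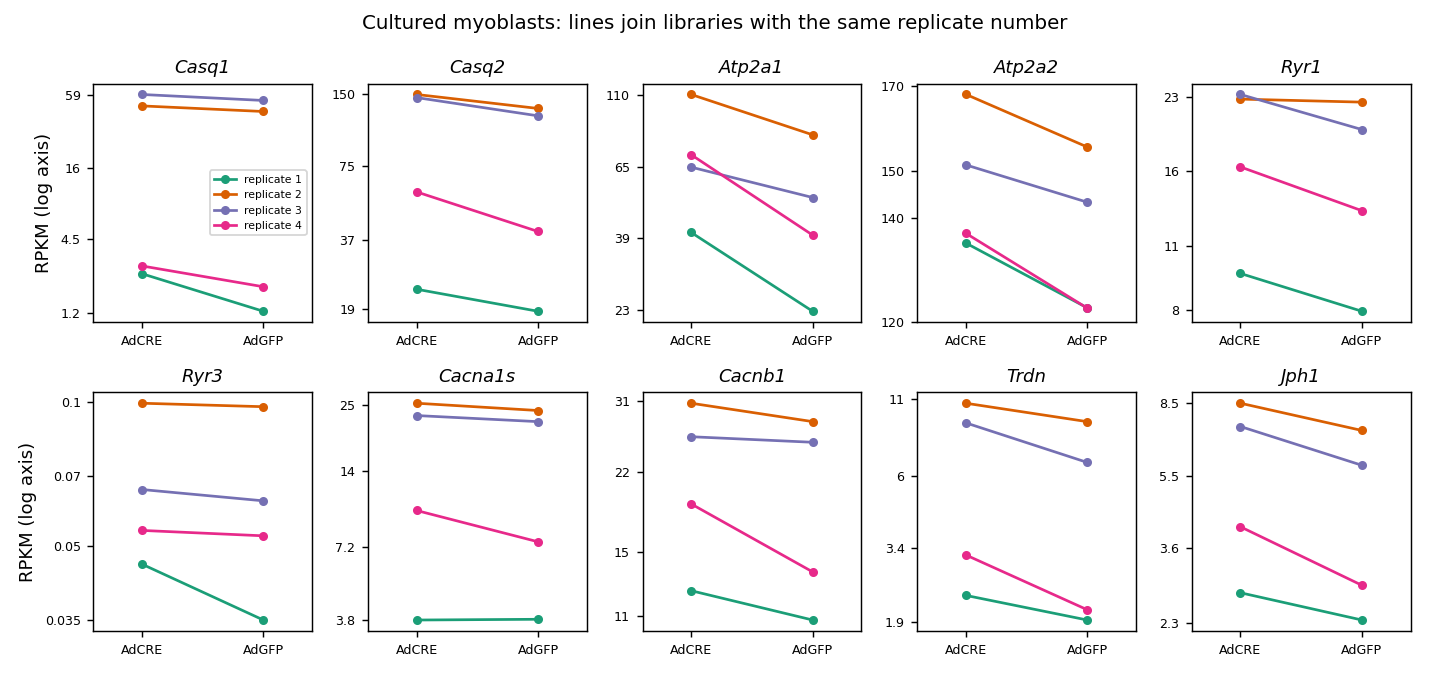
Level of each of the 10 genes in the 8 culture libraries, in RPKM on a log axis, with AdCRE left of AdGFP and lines joining libraries of the same replicate number. Lines fall towards AdGFP for nearly every pair, while the replicates lie far apart, as for Casq1 with 2.40 to 59.2 RPKM in AdCRE and 1.23 to 53.2 RPKM in AdGFP cultures.

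Casq1 was at 2.40, 48.3, 59.2 and 2.76 RPKM in AdCRE replicates 1 to 4, against 1.23, 43.7, 53.2 and 1.90 RPKM in AdGFP replicates 1 to 4. Replicates 2 and 3 were high and 1 and 4 low with either virus. The log2 fold change was 0.37 (adjusted p = 0.945, limma, and 0.0271 with the block), and without the pair of replicate 4 the block fit missed (adjusted p = 0.0908, limma). Casq2 was at 23.0, 149, 145 and 58.6 RPKM in AdCRE, against 18.6, 131, 122 and 40.0 RPKM in AdGFP cultures (0.32, adjusted p = 0.895, limma, and 0.00691 with the block). Casq2 and Casq1 were both lowest in replicate 1, and Casq1 replicate 4 lay near it while Casq2 replicate 4 did not.

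Atp2a1 was at 40.5, 110.4, 65.1 and 71.2 RPKM in AdCRE, against 22.8, 82.3, 52.2 and 39.7 RPKM in AdGFP cultures. It had the largest change of the 9 genes, 0.60 (adjusted p = 0.541, limma, and 0.00342 with the block), widest in replicates 1 and 4. Atp2a2 was at 135, 168, 151 and 137 RPKM in AdCRE, against 123, 155, 143 and 122 RPKM in AdGFP cultures (0.12, adjusted p = 0.654, limma, and 0.0432 with the block). The call for Atp2a2 was lost when any 1 pair was left out, with adjusted p of up to 0.141.

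Ryr1 was at 9.60, 22.8, 23.3 and 16.3 RPKM in AdCRE, against 7.96, 22.5, 19.6 and 13.1 RPKM in AdGFP cultures (0.21, adjusted p = 0.851, limma, and 0.0258 with the block). It missed in 3 of the 4 block fits with a pair left out, those without replicate 1, 3 or 4, with adjusted p of up to 0.0998. Cacna1s was at 3.79, 25.5, 22.9 and 9.93 RPKM in AdCRE, against 3.82, 23.9, 21.7 and 7.54 RPKM in AdGFP cultures. Cacna1s did not pass either way (0.13, adjusted p = 0.960, limma, and 0.163 with the block). Cacnb1 was at 12.5, 30.7, 26.1 and 18.9 RPKM in AdCRE, against 10.8, 28.1, 25.4 and 13.6 RPKM in AdGFP cultures. Cacnb1 also missed (0.20, adjusted p = 0.851, limma, and 0.0559 with the block), and passed only with the pair of replicate 3 left out (adjusted p = 0.0480, limma with the block).

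Trdn was at 2.35, 10.6, 9.10 and 3.22 RPKM in AdCRE, against 1.93, 9.19, 6.67 and 2.10 RPKM in AdGFP cultures (0.34, adjusted p = 0.848, limma, and 0.00984 with the block). Jph1 was at 2.75, 8.50, 7.40 and 4.08 RPKM in AdCRE, against 2.34, 7.23, 5.87 and 2.88 RPKM in AdGFP cultures (0.29, adjusted p = 0.807, limma, and 0.0104 with the block). Trdn and Jph1 thus had the same order of replicates as Cacna1s and Cacnb1, with replicate 2 highest and replicate 1 lowest with AdCRE. In the order of mean levels Atp2a2 was highest and Ryr3 lowest with either virus, and the ranges of all neighbours overlapped except that Ryr3 was clear of Jph1 above it.

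Differentiation markers followed the same order of replicates in the cultures. They summed to 2800, 9199, 7352 and 5049 RPKM in AdCRE, against 2123, 7496, 6615 and 3345 RPKM in AdGFP replicates 1 to 4. The sum over the 10 calcium release genes was 232, 574, 510 and 322 RPKM in AdCRE, against 192, 503, 450 and 243 RPKM in AdGFP cultures, in the same order. Atp2a2, Casq2 and Atp2a1, the highest of the 10, weigh most in that sum. Not every gene had its order: with AdCRE, Casq1 and Ryr1 were highest in replicate 3, and Atp2a1 was higher in replicate 4 than in 3. With the block, 19 of 21 differentiation markers tested passed higher, and all 16 cell cycle genes passed lower. The shares over all genes in that fit were 17.5% higher and 18.7% lower. The cell cycle sum was 243, 393, 431 and 521 RPKM in AdCRE, against 489, 604, 697 and 876 RPKM in AdGFP cultures. Without the block none of either list passed. Myog averaged 540 ± 189 RPKM in AdCRE and 405 ± 177 RPKM in AdGFP cultures (0.46, adjusted p = 0.00698 with the block, limma). Acta1 (0.33, adjusted p = 0.0339 with the block, limma) and Myh3 (0.25, adjusted p = 0.0277 with the block, limma) passed too, but Acta1 missed without the pair of replicate 1, 2 or 4 and Myh3 without that of 1 or 4. Tnnc2 was too low to test, at 0.109 RPKM in AdCRE and 0.0931 RPKM in AdGFP cultures, whereas Casq1 was at 1.23 RPKM or more in every culture. Among markers of other cells, fibroblast markers summed to 46.6 to 97.9 RPKM in AdCRE and 44.9 to 96.4 RPKM in AdGFP cultures, with 2 of 4 tested higher without the block, and 2 higher and 1 lower with it. Smooth muscle and pericyte markers summed to 666 to 1083 RPKM in AdCRE and 408 to 870.0 RPKM in AdGFP cultures, with 1 of 6 tested higher without the block and 3 with it. The higher calls without the block were Ly6a and Col1a1 in the fibroblast list and Rgs5 here, where 0.516% of all genes rose. When a library was left out, Ly6a missed in 2 of 8 such fits, and Col1a1 and Rgs5 each in 7 of 8. Each passed the block fit with any 1 pair left out. Leukocyte markers summed to 11.05, 2.74, 3.61 and 6.38 RPKM in AdCRE, against 6.76, 1.18, 1.85 and 3.60 RPKM in AdGFP replicates 1 to 4. Endothelial markers summed to 1.92 to 3.35 RPKM in AdCRE and 1.10 to 1.58 RPKM in AdGFP cultures, and Schwann cell markers to 2.42 to 4.44 RPKM in AdCRE and 1.77 to 3.28 RPKM in AdGFP cultures. The sums of the fibroblast, smooth muscle, leukocyte, endothelial, Schwann, cardiac and adult fibre lists were each higher in AdCRE in all 4 pairs. With the block all 3 cardiac markers tested and 6 of 9 adult fibre markers tested passed higher. The cardiac calls of Gata4 and Tnnt2 were each lost in 3 of the 4 block fits with a pair left out, and that of Tnni3 in 1. Of the 10 cardiac markers, 7 were below 0.5 RPKM in every culture library. Of 8 satellite cell markers tested, 3 passed lower with the block and none higher. With the block the 1 leukocyte marker tested passed higher, as did 1 of 2 endothelial and 1 of 2 Schwann markers tested, and none of these did without it. The part of these markers and of the differentiation markers in the paired differences was not tested.

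Of the wider calcium handling genes none passed in the cultures without the block and 23 passed higher with it. In the block fit 17.5% of all genes rose and 18.7% fell. These were 10 of 16 genes of triad and reticulum structure, 4 of 7 tested channel and excitability genes, and 9 of 18 tested pump regulator, entry, extrusion and buffer genes, with none lower. The changes were largest for Scn4a (0.84, adjusted p = 0.00116 with the block, limma) and Atp2a3 (0.83, adjusted p = 0.00306 with the block, limma). Atp2b4, a calcium pump of the surface membrane, followed at 0.63 (adjusted p = 0.000544 with the block, limma). Scn4a and Atp2a3 passed in both settings, while Atp2b4 in sorted cells averaged 36.9 ± 3.53 RPKM in Chd4dPax7ER and 39.7 ± 6.74 RPKM in Chd4fl/fl cells and did not pass. Stac3 averaged 46.2 ± 6.08 RPKM in AdCRE and 36.8 ± 5.33 RPKM in AdGFP cultures (0.33, adjusted p = 0.282, limma, and 0.00435 with the block). Scn4a, Atp2a3, Atp2b4 and Stac3 also passed the block fit with any 1 pair left out.

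Jsrp1 (0.23, adjusted p = 0.0387, limma with the block) and Sln (0.44, adjusted p = 0.0322, limma with the block) passed only with the block, and each missed in 3 of the 4 block fits with a pair left out, without replicate 1, 2 or 4. Jph2 averaged 66.9 ± 21.9 RPKM in AdCRE and 73.8 ± 24.5 RPKM in AdGFP cultures and did not pass with the block (-0.15, adjusted p = 0.156, limma). Jph2 was thus on the lower side in both settings without passing in either. Mrln averaged 2.85 ± 1.15 RPKM in AdCRE and 2.12 ± 0.737 RPKM in AdGFP cultures (0.33, adjusted p = 0.0120, limma with the block), and missed without the pair of replicate 2 (adjusted p = 0.0536, limma with the block). The nearest profiles to the mean of the 9 genes tested were those of Lmod2 and Lmod3, the muscle leiomodins of thin filaments, with root mean square differences of 0.0395 and 0.0726 over the 8 libraries. Tmem117 and Tmem252 were also among the nearest, at 0.0906 and 0.0919.

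The changes of the 2 settings were set against each other in 1 model over the 11941 genes tested in both, as the sorted-cell log2 fold change minus that of the cultures. None of the 9 genes tested in both passed, against 2.43% of all genes with a larger change in the sorted cells and 1.69% with a smaller one. All 9 differences were positive. For Casq1 the difference was 3.08 (SE 1.63, adjusted p = 0.334, limma), and for Trdn it was 1.78 (SE 0.80, adjusted p = 0.238, limma). With replicate blocks Casq1 (SE 0.28, adjusted p = 0.000521, limma) and Trdn (SE 0.50, adjusted p = 0.0440, limma) passed and the other 7 did not, against 8.21% of all genes with a larger and 5.93% with a smaller change. With the block in the cultures alone, where the numbers pair the libraries, Casq1 passed (adjusted p = 0.000501, limma) and Trdn did not (adjusted p = 0.0539, limma). Sorted cells and cultures differ in source, injury and mode of deletion at once, which cannot be told apart here.

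**Figure D5:**
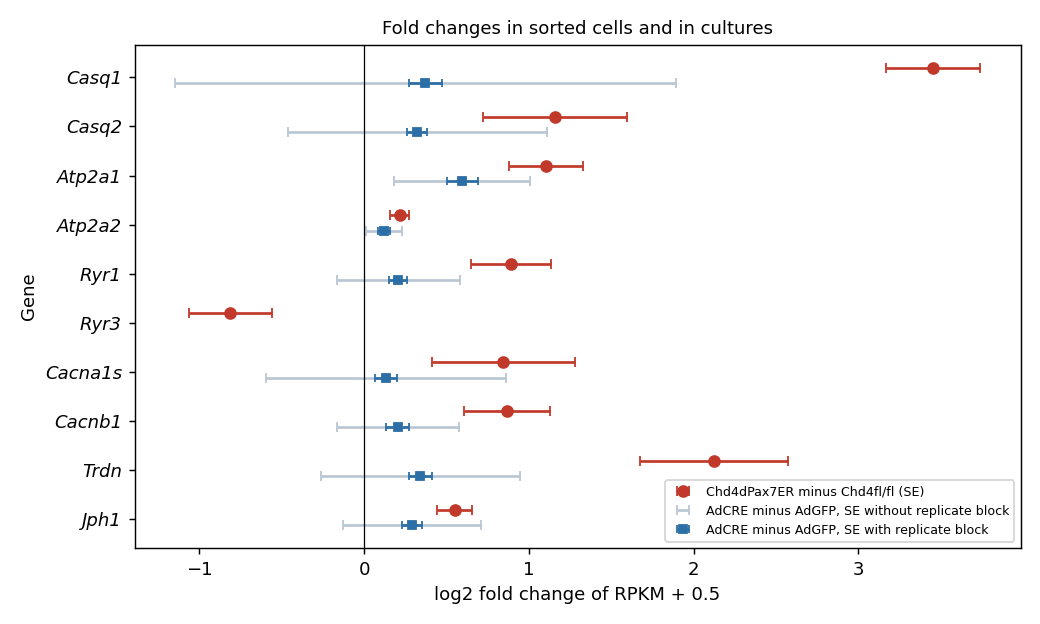
Log2 fold change of each of the 10 genes with its standard error, Chd4dPax7ER minus Chd4fl/fl in the sorted cells and AdCRE minus AdGFP in the cultures, where the grey bar is the standard error without and the blue bar that with the replicate block. Casq1 at 3.45 and Trdn at 2.12 stand out in the sorted cells, where Ryr3 is below 0 at -0.81, and the 9 genes tested in the cultures, all but Ryr3, lie between 0.12 and 0.60.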

How the data were processed

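Total gene expression was compared in 16 RNA-seq samples, 4 per group, and the 8 ATAC-seq samples of the series were not analysed here. The authors deposited 1 RPKM table for each setting, and per the labels the builds are mm10 and GRCm38. Tools named in the submitters' processing notes, with no role, include cutadapt 1.18, HISAT2 2.1.0 and Picard 2.18.15. No source used here states the counting program or the gene lengths. The sorted-cell RPKM values were deposited rounded to 2 decimals, and their depth is unknown. The RNeasy Micro kit is stated, per the labels, for the cultures.

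The 10 genes and all gene lists were chosen with earlier results of these data known. AdCRE was compared with AdGFP and Chd4dPax7ER with Chd4fl/fl, each within its own table, on log2(RPKM + 0.5). Genes at 0.5 RPKM or more in at least 4 of 8 libraries were tested with limma 3.58.1 in R 4.3.3, with a variance trend and Benjamini-Hochberg adjustment over all genes tested. SE is limma's moderated standard error. The scripts were tested on simulated data. The difference between settings used 1 limma model over the 16 libraries. Paralogue ratios and Chd4 were tested with exact permutation tests in scipy 1.17.1.

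Deviations from group means correlated between same-numbered libraries at 0.711 to 0.856 in the cultures, so replicate numbers pair them, and at -0.0967 to 0.0499 in the sorted cells, where they do not. Block fits are therefore given beside the culture results. Wider genes named are the up to 8 largest changes among those passing in a setting (in the cultures, from the block fit and the leading 3), with pump regulators, Jph2, Stac3 and Jsrp1 always given. Genes that these rules name but that are withheld from the text are not reported here. Differentiation genes always given are Myog, Acta1, Tnnc2 and Myh3. Symbols Cacng6 and Pygm each had a duplicate identifier at 0 in every library, which was dropped. Alternatives were pseudocounts of 0.1 and 1, no filter, a filter of 1 RPKM, TPM and quantile scaling, no trend, the replicate block and leaving out each library. Fits leaving out a pair, and the block in the cultures alone, were added after the data were seen. Promoter windows are from RefSeq, GRCm38.p6. The protein sequences of Casq1 and Casq2 were not used here.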

Additional observations from a re-analysis of the deposited data

Results flagged for a closer look

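In the sorted cells 1 library stood apart from the other 3 of its group, by Dixon's 95% criterion on the gap to the nearest library, for 4 of the 10 genes, and for Casq2 in both groups. Casq1 was at 227 RPKM in Chd4dPax7ER replicate 2. Casq2 was at 91.7 RPKM in Chd4dPax7ER replicate 2 and, as the lowest of its group, at 8.25 RPKM in Chd4fl/fl replicate 1. Atp2a1 was at 290.2 RPKM and Ryr1 at 31.5 RPKM, both in Chd4dPax7ER replicate 2. In all, 44 groups of 4 were examined, and chance flags about 5% of them. Chd4dPax7ER replicate 2 also had the highest sum of differentiation markers, 6389 RPKM, and the lowest sum of cell cycle genes, 326 RPKM, of the 8 sorted-cell libraries. Whether these go together was not tested. Without that library the log2 fold changes were 3.15 for Casq1, 0.73 for Casq2, 0.88 for Atp2a1 and 0.69 for Ryr1.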

How the results depend on the processing

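In the sorted cells Casq1, Atp2a1, Ryr1, Trdn and Jph1 kept their calls with each library left out, and with each library left out 5 to 7 of the 10 genes rose. The single lower call, Ryr3, was lost in all of these fits, so the count of lower genes was 0 in each, and it was also 0 with no filter, with a filter of 1 RPKM and with the replicate block. Over all genes 1535 to 1754 rose and 1034 to 1436 fell when a library was left out, against 1960 and 1588. Under TPM scaling 46.4% and under quantile scaling 47.3% of the calls in sorted cells were higher, against 55.2%. Without a variance trend 5 of the 10 genes rose, against 13.7% of all genes. In the wider lists 17 to 20 genes rose when a library was left out, against 20.

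In the cultures the replicate block moved the count of higher genes among the 10 to 7, in the wider lists to 23, and over all genes to 2371 higher and 2536 lower, against 70 and 19. Without the filter 12 fell. With a library left out 14 to 40 rose and 2 to 4 fell. With the block and the pair of replicate 1, 2, 3 or 4 left out, 1963, 1676, 1884 and 1555 rose and 1862, 2044, 1930 and 1602 fell. The same fits called 5, 6, 6 and 4 of the 10 genes higher, and 17, 18, 22 and 16 of the wider genes, with 1 wider gene lower without replicate 3. Single-library changes reversed the log2 fold change in the cultures for some genes, with ranges of -0.47 to 1.18 for Casq1, -0.22 to 0.87 for Casq2, -0.075 to 0.47 for Ryr1, -0.35 to 0.66 for Cacna1s and -0.034 to 0.45 for Cacnb1. Those fits had no block, and leaving out 1 library breaks a pair. With the block and a whole pair left out, the log2 fold changes of these genes stayed positive. They ran from 0.25 to 0.45 for Casq1, 0.25 to 0.36 for Casq2 and 0.17 to 0.27 for Ryr1. For Cacna1s they ran from 0.053 to 0.18 and for Cacnb1 from 0.12 to 0.26. With 1 library left out, the cultures' log2 ratio differences ran from -0.45 to 0.60 for Casq1 over Casq2 and from -0.063 to 0.44 for Ryr1 over Ryr3, where Ryr3 is too low for the ratio to be read. With replicate blocks 2 of the 9 genes had a larger change in the sorted cells, 1 with the block in the cultures alone, and 1 with a pair left out. Over all genes the shares were 8.21%, 6.24% and 3.97% to 4.95%. The Jph1 difference between settings ran from -0.0097 to 0.50 with a library left out. In the sorted cells, where the numbers do not pair, the block left 5 of the 10 genes higher, against 12.7% of all genes. It gave 1694 higher and 1184 lower over all genes. The cause of these movements was not tested. Depth in the sorted cells is unknown, and 4 libraries a group limit the paralogue tests.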
